A study of Mus musculus with 2 samples.

Results

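The 10 genes described here belong to the interleukin 6 family of cytokines, followed across the cell types of 2 mouse tissues, and are 10 of the 55416 features counted in both libraries. They were taken by name: the ligands Il6, Lif, Osm, Il11 and Clcf1, the receptor subunits Il6st, Il6ra, Lifr and Osmr, and the feedback inhibitor Socs3. Each symbol matched 1 feature. One single-cell library came from gastrocnemius, the large calf muscle, and 1 from lung, both made with a 5′ kit after enzymatic digestion and magnetic selection with CD45 beads. The labels call both libraries TB mice of a CAC mouse model. The series text speaks of a tumor-bearing model in a study of cachexia, the wasting of muscle in cancer, and of arms given IgG, an antibody against PD-L1 or one against CD8a. Which arm these libraries belong to, and the age and number of mice, are not given in the sources used here, and no tumor-free library was analysed here. Tissue and library cannot be told apart with 1 library per tissue, so no test was made and every difference is a difference between 2 libraries.

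Cytokines of this family signal through a shared receptor subunit, gp130, the product of Il6st. Il6ra adds binding of interleukin 6, Lifr that of leukemia inhibitory factor (Lif) and Osmr that of oncostatin M (Osm). The receptors engage JAK kinases and the transcription factor STAT3, and STAT3 induces Socs3, which in turn binds gp130 and JAK and ends the signal. Interleukin 6 and Lif have both been linked to cachexia, and oncostatin M to muscle atrophy and to the activation of endothelium. Muscle satellite cells, the stem cells of the fibre, respond to several of these ligands.

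The muscle library held 5547 barcodes and the lung library 8481. Barcodes with at least 200 genes, at most 10% mitochondrial UMIs and no call as a doublet were kept, 2143 in muscle (median 3069 UMIs) and 7638 in lung (median 2138 UMIs). In muscle, 59.5% of barcodes were over the mitochondrial limit. The libraries shared 64 barcode sequences, 22 of them among kept cells. The CD45 label went against much of the muscle library: its gene, Ptprc, had a UMI in 13.3% of kept muscle cells and in 54.9% of kept lung cells, and 1197 of the 2143 muscle cells were endothelial-like. Classes were named from marker genes and are written with "-like". In lung, 1317 cells stayed unnamed. Levels are CPM, the counts of a gene summed over a class and scaled to 1000000 UMIs, with exact Poisson 95% intervals that cover counting error only. Levels were not compared between genes.

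The promoters of Il6, Lif and Socs3 are shown because Il6 and Lif were highest in the same lung cluster and Socs3 moved with immediate early genes. The windows are RefSeq sequence on GRCm38.p6, a different build from the GRCm39 of the count files, from 250 bases before to 50 after the annotated start, and capitals mark a motif match on either strand.
Il6, chr5:30012864-30013163, plus strand: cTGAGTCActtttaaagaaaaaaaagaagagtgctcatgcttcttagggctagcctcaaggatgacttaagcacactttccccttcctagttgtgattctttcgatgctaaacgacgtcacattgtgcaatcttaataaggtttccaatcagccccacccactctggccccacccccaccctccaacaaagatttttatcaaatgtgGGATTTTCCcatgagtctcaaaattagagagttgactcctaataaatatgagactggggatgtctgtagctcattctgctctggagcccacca
Lif, chr11:4257318-4257617, plus strand: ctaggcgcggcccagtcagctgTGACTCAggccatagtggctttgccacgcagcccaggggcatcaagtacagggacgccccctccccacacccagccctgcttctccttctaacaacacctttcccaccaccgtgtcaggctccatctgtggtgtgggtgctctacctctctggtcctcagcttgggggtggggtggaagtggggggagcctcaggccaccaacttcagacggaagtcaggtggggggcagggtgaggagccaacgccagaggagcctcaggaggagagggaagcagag
Socs3, chr11:117969317-117969616, minus strand: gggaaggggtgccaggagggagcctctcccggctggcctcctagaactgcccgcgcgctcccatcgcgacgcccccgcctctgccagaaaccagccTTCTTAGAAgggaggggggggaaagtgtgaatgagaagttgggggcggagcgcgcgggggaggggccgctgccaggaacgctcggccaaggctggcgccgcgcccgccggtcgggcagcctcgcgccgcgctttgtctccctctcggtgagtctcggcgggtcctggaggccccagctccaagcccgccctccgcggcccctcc
The motif TGANTCA, of the AP-1 factors such as Fos and Jun, matched at -249 in Il6 and at -228 in Lif, counted from the start site. GGANTTTCC, an NF-kB motif, matched at -43 in Il6, and TTCNNNGAA, a STAT motif, at -154 in Socs3. Of 32851 promoter windows of the same length, 7.81% held the first, 1.25% the second and 8.30% the third. A window was matched by symbol for 8 of the 10 genes. TGANTCA also matched in the second of 2 Il11 windows, at -98, and in Osmr, at 3, so it was not particular to the windows shown. A match describes letters and is no evidence of binding.

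**Figure D1:**
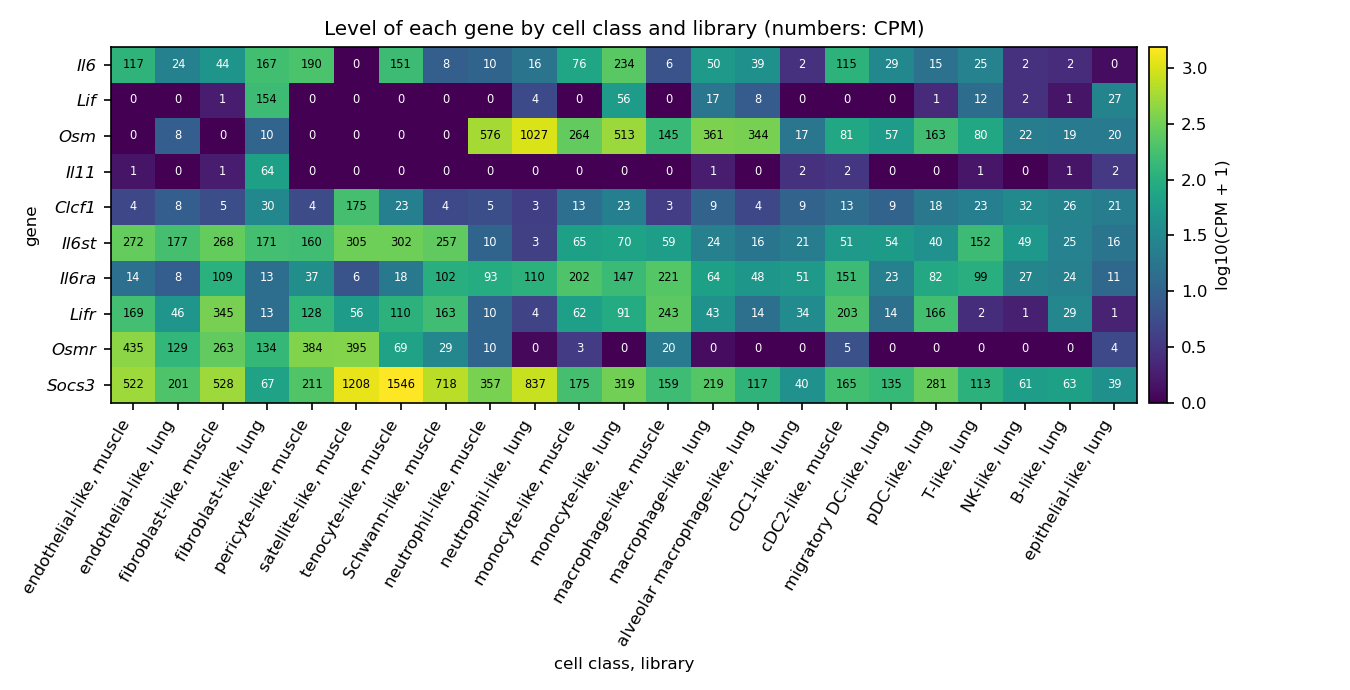
Heat map of the CPM of each of the 10 genes (rows) in the 23 pairs of cell class and library with at least 20 kept cells (columns); color is log10(CPM + 1) and the numbers are CPM. Osm and Osmr fill nearly separate columns, with Osm in phagocytes and Osmr in endothelial-like and mesenchymal cells, and Lif is near 0 in every muscle column.

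Oncostatin M, a cytokine of activated phagocytes, was counted mostly in lung neutrophils and mononuclear phagocytes. Lung neutrophil-like cells had 6121 Osm UMIs at 1027 CPM (interval 1002 to 1053, 2592 cells), the highest of the 23 class and library pairs, and no other pair's interval overlapped it. Muscle neutrophil-like cells stood next at 576 CPM (118 UMIs, 54 cells). Lung monocyte-like cells had 513 CPM, lung macrophage-like cells 361, alveolar macrophage-like cells 344 and muscle monocyte-like cells 264. Neutrophil marker genes summed to 5232 CPM in alveolar macrophage-like cells (11355 in their cluster 31, 160 lung cells) and to 7195 in muscle monocyte-like cells. In lung monocyte- and macrophage-like cells they summed to 1307 and 540 CPM. The part of neutrophil RNA in these Osm levels was not tested. An Osm UMI was found in 46.1% of lung neutrophil-like cells (median 2011 UMIs) and in 4.76% of lung B-like cells (median 2003 UMIs), a type that was taken as the background. At 1000 UMIs per cell these shares were 36.1% and 1.91%, with 281 neutrophil-like and 86 B-like cells left out. Lung NK-like, epithelial-like and cDC1-like cells lay at the B-like level of 19.5 CPM, between 17.0 and 21.8 CPM. With no cells removed as doublets the B-like level was 138 CPM and the NK-like level 67.4. The NK-like class is cluster 11, which has Cd8a and Cd8b1 among its leading genes beside Gzma and Klrd1. In muscle, no Osm UMI was counted in 1197 endothelial-like cells, with an interval up to 0.970 CPM, nor in fibroblast-, pericyte-, satellite-, tenocyte- or Schwann-like cells.

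Neutrophil clusters of the lung differed in Osm. Cluster 9, led by Retnlg, Lcn2 and S100a9, had 2582 CPM. Cluster 2, led by Acod1, Hdc and Il23a, had 1194, cluster 6, led by Mreg, Rab15 and Ccl3, had 653, and cluster 3, with Siglecf and Prss2, had 355. So the Siglecf cluster lay below the other 3 and the Retnlg cluster above them. Cluster 9 also held 41 of the 54 muscle neutrophil-like cells, and these had 632 CPM. In smaller classes the Osm count rested on few cells. One cell gave 42 of 52 UMIs of muscle macrophage-like cells, 47 of 109 of muscle cDC2-like cells and 32 of 98 of muscle monocyte-like cells. In lung, 1 cell gave 37 of 109 UMIs of pDC-like, 13 of 37 of migratory DC-like and 10 of 24 of NK-like cells. Among lung T-like cells, 80.2 CPM fell to 31.9 without a sub-cluster of 44 T and NK cells that also had 4083 CPM of summed neutrophil markers, against 433 to 1798 in the other 9 sub-clusters.

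**Figure D2:**
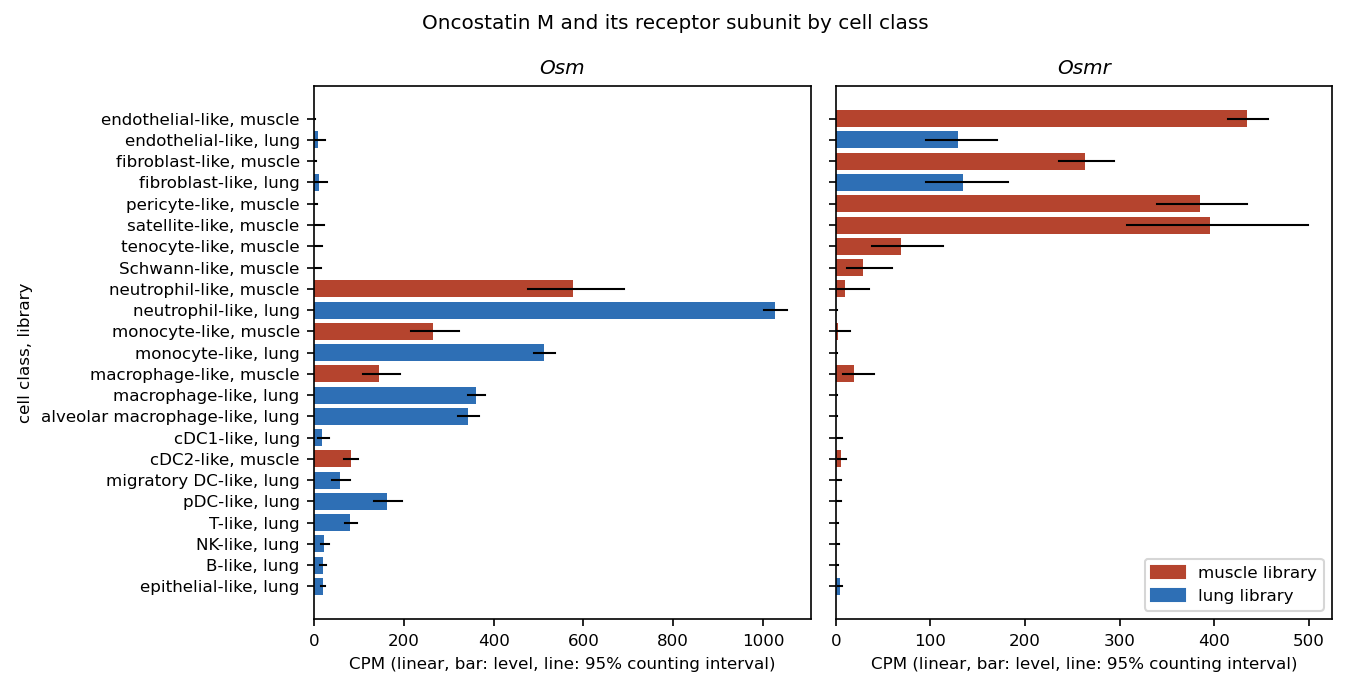
Bars show the CPM of Osm (left) and Osmr (right) in each cell class of the muscle (red) and lung (blue) library, with lines for the 95% counting interval. Osm reaches 1027 CPM in lung neutrophil-like cells and is 0 in muscle endothelial-like cells, while Osmr is 435 CPM there and under 1 CPM in lung neutrophil-like cells.

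Interleukin 6 had several sources, and in each a UMI was found in a minority of cells, 19.9% or fewer. In lung the monocyte-like class had 823 UMIs at 234 CPM (interval 218 to 251, 505 cells). Of these, 652 came from the 59 lung cells of cluster 37, at 1740 CPM. That cluster was led by Il6 itself, Cxcl1, Lif and Ccl2, although the 10 genes had been kept out of clustering, and its Lif stood at 334 CPM, its Osm at 1078 and its Clcf1 at 82.8. Without cluster 37 the lung monocyte-like class had 54.5 CPM of Il6 and 22.9 CPM of Lif, so most of both counts sat in these 59 cells. Other settings also lowered the class: at Leiden resolution 0.5 it had 21.0 CPM of Il6 and 6.59 of Lif, and among cells with at least 1000 UMIs 62.8 and 21.7. An Il6 UMI was found in 18.8% of lung monocyte-like cells, a Lif UMI in 11.3% and both in 6.73%, where the product of the single shares is 2.12%. At 1000 UMIs per cell the joint share was 1.42% and the product 0.246%.

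In muscle, Il6 was counted in stromal and vascular cells. Pericyte-like cells had 190 CPM (128 UMIs, 200 cells), tenocyte-like cells 151 (68.4 at a mitochondrial limit of 20%), endothelial-like cells 117 (444 UMIs, 1197 cells), cDC2-like cells 115 and fibroblast-like cells 44.3. Satellite-like cells had none. The pericyte-like class joins cluster 17 (122 cells), with no pericyte marker and the smooth muscle marker Myh11 among its 10 leading genes, and cluster 19 (78 cells), with 3 markers of each type there, so smooth muscle cells cannot be told apart from pericytes in it. Their Il6 stood at 161 and 219 CPM. The intervals of muscle pericyte-like and lung fibroblast-like cells overlapped that of the lung monocyte-like class, and all 22 pairs of neighbours in the order of Il6 levels overlapped. Single cells carried much of the count in several classes: 43 of 50 Il6 UMIs in lung fibroblast-like cells, 68 of 95 in lung neutrophil-like cells, 33 of 46 in lung T-like cells, 5 of 10 in lung pDC-like cells, 14 of 33 in tenocyte-like cells and 12 of 28 in muscle monocyte-like cells.

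Muscle endothelial cells were not uniform in Il6. Clustered again, the 67 muscle cells of sub-cluster 5, venous-like and led by Tagln, Ackr1 and Plvap, had 416 CPM (190 UMIs). Sub-cluster 3, unnamed and led by Tnfsf9, Cxcl1 and Egr1, had 257, and sub-cluster 9, venous-like, 229. Capillary-like cells of sub-cluster 2 had 4.15 CPM (4 UMIs, 321 cells) and sub-cluster 1 had 10.2. Between these lay the arterial-like sub-cluster 6 at 65.1 CPM (28 UMIs) and sub-cluster 4 at 55.3 (14 UMIs).

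Lif was counted almost entirely in the lung library. The muscle library held 1 Lif UMI in 8871616, and the lung library 18.5 CPM. Lung fibroblast-like cells had 154 CPM, from 46 UMIs that all lay in the 15 lung cells of cluster 16, with 19 in 1 cell. Lung monocyte-like cells had 56.1 CPM, epithelial-like cells 26.6, macrophage-like cells 16.8 and T-like cells 12.4. Lif is also made by some epithelia and tumors, and the epithelial-like counts lay mainly in cluster 18, with 95 of the 100 UMIs. That cluster was also far deeper, with a median of 25252 UMIs per cell against 745 in cluster 10, the other epithelial-like cluster. The part of depth in this split was not tested.

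Il11, a ligand of fibroblasts, was barely detected, at 0.676 CPM over the muscle library and 1.21 CPM over the lung library. Of 19 Il11 UMIs in lung fibroblast-like cells, 18 came from 1 cell. Clcf1, which signals through the CNTF receptor, was highest in muscle satellite-like cells at 175 CPM (31 UMIs, interval 119 to 248, 22.8% of 57 cells). No other pair overlapped it, and lung NK-like cells came next at 31.8 CPM. At a mitochondrial limit of 20% the satellite-like level was 112 CPM. Cntf, the ciliary neurotrophic factor of Schwann cells, had 184 CPM in muscle Schwann-like cells and no UMI in the other 22 pairs. Cntfr, the receptor subunit for both, was highest in tenocyte-like cells at 393 CPM, followed by satellite-like cells at 79.0.

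The oncostatin M receptor subunit was carried most by muscle endothelium and stroma. Osmr had 435 CPM in muscle endothelial-like cells (1652 UMIs, interval 414 to 456), 395 in satellite-like cells, 384 in pericyte-like cells and 263 in fibroblast-like cells. The intervals of the first 3 overlapped. Schwann-like cells had 28.6 CPM. Tenocyte-like cells had 68.6 CPM from 15 UMIs, but 156 to 158 under 5 other settings of filter or clustering and 317 at a mitochondrial limit of 20%, where fibroblast-like cells had 168. In lung, fibroblast-like cells had 134 CPM and endothelial-like cells 129, from 53 and 70 cells. The 40 fibroblast-like UMIs all lay in the 15 lung cells of cluster 16, with 13 in 1 cell. Lung neutrophil-like cells had 1 Osmr UMI in 5958726 and lung monocyte-like cells had none. Muscle macrophage-like cells had 19.6 CPM, from 7 UMIs.

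Within muscle endothelium, Osmr and Socs3 were highest in different sub-clusters. Osmr reached 1291 CPM in sub-cluster 4 (98 cells, led by Efna5 and Arhgap44) and 571 in sub-cluster 1 (328 cells, led by Gm12339 and Auts2), where Socs3 stood at 118 and 62.9 CPM. Both had much of the nuclear RNA Malat1, 15277 and 11794 CPM, against 2820 to 4298 in sub-clusters 2, 3, 5 and 6, where Osmr had 219 to 452 CPM. Sub-clusters 9 and 10 had as much Malat1, 14699 and 22696 CPM, with Osmr at 443 and 345. In the pericyte-like class, cluster 17 had 536 CPM of Osmr, 56.6 of Socs3 and 38956 of Malat1, and cluster 19 had 234 of Osmr, 364 of Socs3 and 7277 of Malat1. The part of nuclear RNA content in these values was not tested.

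**Figure D3:**
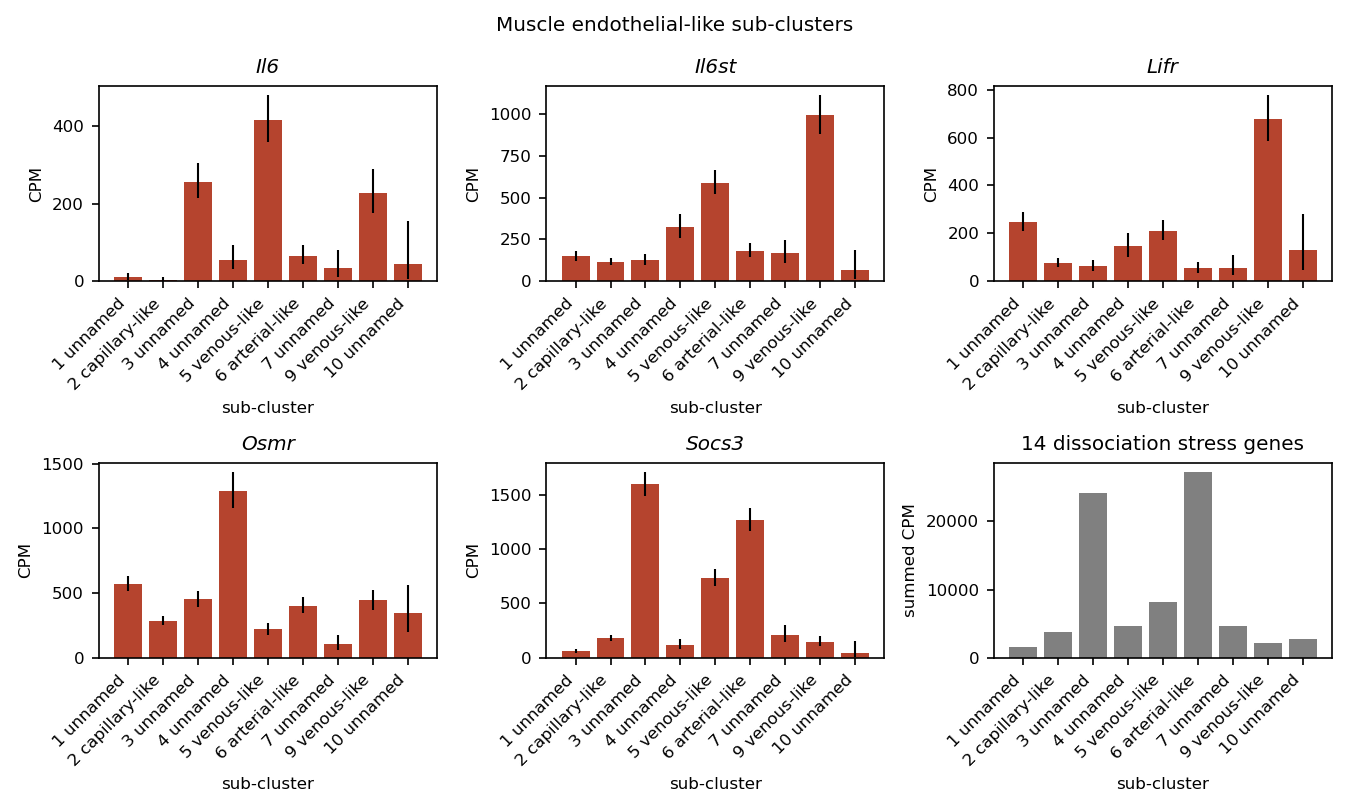
CPM of Il6, Il6st, Lifr, Osmr and Socs3 with 95% counting intervals, and the summed CPM of 14 dissociation stress genes, in the muscle endothelial-like sub-clusters with at least 20 cells. Il6 peaks in venous-like sub-cluster 5 (416 CPM), Il6st and Lifr in venous-like sub-cluster 9 (993 and 675 CPM), Osmr in sub-cluster 4, and Socs3 in sub-clusters 3 and 6, where the stress genes also peak.

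Il6st, the shared subunit, was carried most by the muscle stroma. Satellite-like cells had 305 CPM, tenocyte-like cells 302, muscle endothelial-like cells 272 (1033 UMIs), fibroblast-like cells 268 and Schwann-like cells 257. The intervals of the other 4 overlapped that of satellite-like cells. Lung endothelial-like cells had 177 CPM, lung fibroblast-like cells 171, muscle pericyte-like cells 160 and lung T-like cells 152. Neutrophil-like cells carried little of it, 3.02 CPM in lung and 9.77 in muscle. Over whole libraries Il6st had 201 CPM in muscle and 36.6 in lung.

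Lifr was highest in muscle fibroblast-like cells at 345 CPM (428 UMIs, interval 313 to 379), with no overlap by another pair. Across all settings of the processing this level ran from 254 to 448 CPM. The ranges of muscle macrophage-like cells (192 to 446 CPM) and tenocyte-like cells (110 to 408 CPM) overlapped it. Muscle macrophage-like cells had 243 CPM, cDC2-like cells of muscle 203 (a cluster led by Retnla, Lyz1, Fcrls and Clec4b1), muscle endothelial-like cells 169, lung pDC-like cells 166 and Schwann-like cells 163. Satellite-like cells had 56.4 CPM from 10 UMIs. Lung T-like, NK-like and epithelial-like cells had 0.907 to 1.62 CPM. In muscle endothelium Lifr and Il6st were both highest in venous-like sub-cluster 9, at 675 and 993 CPM, against 77.8 and 117 CPM in capillary-like sub-cluster 2. Schwann-like cells split as well: cluster 25, led by Csmd1 and Cdh19, had 533 CPM of Il6st and 339 of Lifr, and cluster 21 had 117 and 73.9. Muscle cDC2-like cells had 77.8 CPM of Lifr with the libraries clustered separately.

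Il6ra, the subunit for interleukin 6 itself, was highest in some myeloid classes, while other leukocyte classes had less than some stroma. Muscle macrophage-like cells had 221 CPM, monocyte-like cells 202 in muscle and 147 in lung, muscle cDC2-like cells 151 and lung neutrophil-like cells 110. Muscle fibroblast-like cells had 109 CPM and Schwann-like cells 102, whose 25 UMIs all lay in cluster 21. Lung macrophage-like (64.0 CPM), alveolar macrophage-like (48.3), NK-like (27.2), B-like (23.6) and migratory DC-like cells (23.2) lay below both. Muscle endothelial-like cells had 13.7 CPM and satellite-like cells 1 UMI, while pericyte-like cells had 37.1 CPM. Soluble Il6ra, shed by the proteases Adam10 and Adam17, can serve cells without it. Adam17 had its highest level, 137 CPM, in the same muscle macrophage-like cells.

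Among lung T and NK cells Il6ra varied by sub-cluster. Sub-cluster 4, led by Igfbp4, Lef1 and Bach2, had 272 CPM of Il6ra and 303 of Il6st (114 cells). The regulatory-like sub-cluster 1 with Foxp3 had 42.3 and 153 CPM. The CD8-like sub-cluster 5 with Lag3 and Xcl1 had 7.67 and 17.9 CPM, and the NK-like sub-cluster 6 had no Il6ra UMI in 67 cells.

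Socs3, the inhibitor that STAT3 induces, was highest in tenocyte-like cells at 1546 CPM (338 UMIs) and satellite-like cells at 1208 (214 UMIs). At a mitochondrial limit of 20% these were 645 and 814 CPM, and lung neutrophil-like cells, at 826, stood above both. Lung neutrophil-like cells had 837 CPM, Schwann-like cells 718, muscle fibroblast-like cells 528, muscle endothelial-like cells 522 and muscle neutrophil-like cells 357. Lung epithelial-like and cDC1-like cells had 38.6 and 39.6 CPM. Satellite- and tenocyte-like cells also had the most RNA of 14 genes that tissue dissociation is known to induce, 38454 and 27796 CPM summed. Pericyte-like cells at 13526 and lung neutrophil-like cells at 13262 followed. The pericyte-like class had only 211 CPM of Socs3, less than Schwann-, fibroblast- and endothelial-like cells of muscle. In muscle endothelium Socs3 had 1597 CPM in sub-cluster 3 and 1269 in the arterial-like sub-cluster 6, where the stress genes summed to 24155 and 27260 CPM. In sub-cluster 1, with 1551 CPM of stress genes, Socs3 had 62.9. The venous-like sub-cluster 5 had 736 CPM of Socs3 at 8231 CPM of stress genes. The part of dissociation in the Socs3 levels was not tested.

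**Figure D4:**
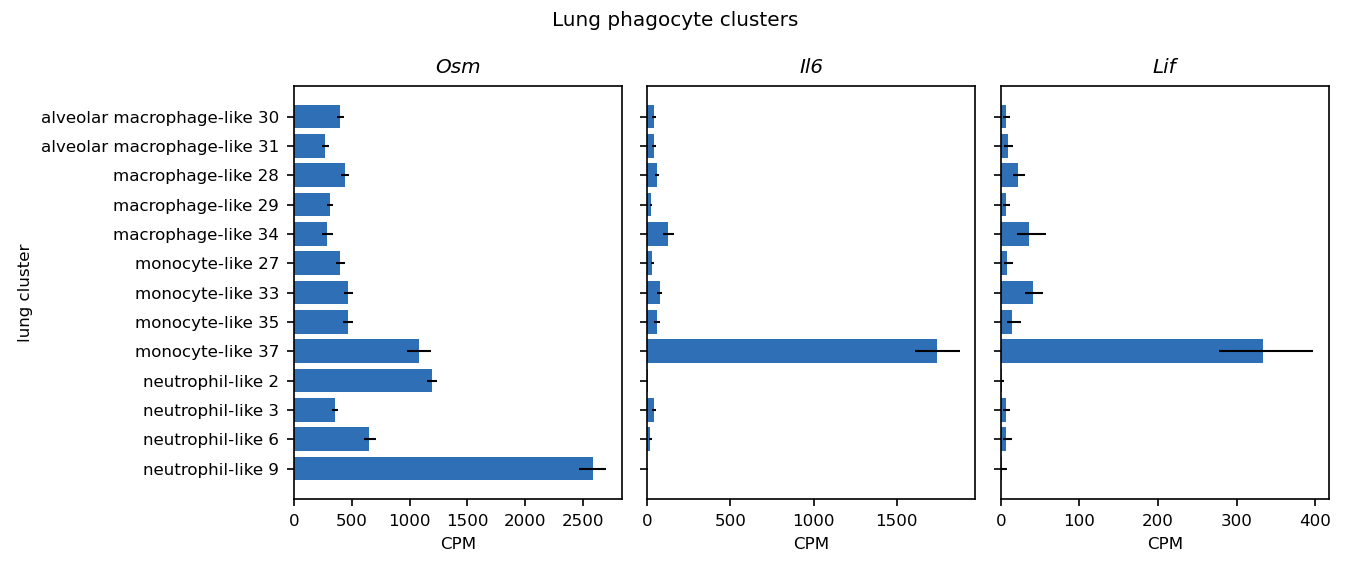
CPM of Osm, Il6 and Lif in the lung clusters of alveolar macrophage-like, macrophage-like, monocyte-like and neutrophil-like cells, with 95% counting intervals. Osm is spread over all 13 clusters with its peak of 2582 CPM in neutrophil-like cluster 9, while Il6 and Lif peak in monocyte-like cluster 37.

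Between the libraries, 4 classes with at least 20 cells on both sides were compared whole. Enough cells were also found for the macrophage-like class, 57 in muscle and 425 in lung. Macrophage-like cells were compared by cluster, because 1 of their clusters was led by a marker of another class, which left cluster 34 (50 muscle and 79 lung cells, led by Ccl8, Cd163 and Folr2). A gene was called apart when its CPM differed at least 4-fold, the exact interval of the ratio excluded 2-fold and the higher side had at least 30 counts. This is a rule of size and no test.

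In endothelial-like cells 1 of the 6 genes that had enough counts was apart, against 4.16% of 9126 genes. Il6 had 117 CPM in muscle and 24.1 in lung (9 UMIs, 70 cells), a log2 ratio of 2.27 (interval 1.34 to 3.41). Lifr (169 and 45.6 CPM, log2 1.89), Osmr (435 and 129 CPM, log2 1.76) and Socs3 (522 and 201 CPM, log2 1.38) were higher in muscle but under the size rule. Of the 70 lung cells, 51 were of the lymphatic-like sub-cluster 8. These held 1 of the 9 Il6 UMIs, and 8 lay in the 15 lung cells of sub-cluster 5. Without sub-cluster 8, 19 lung cells were left, Lifr (log2 2.68) and Osmr (log2 2.15) were apart, and Il6 (log2 1.95) was not. In the venous-like sub-cluster 5, with 67 muscle and 15 lung cells, Il6 (log2 3.76), Il6st (2.09), Lifr (3.19) and Socs3 (2.37) were all apart, and Osmr (1.13) was not. The stress genes moved with these values, 9167 CPM summed in muscle and 2870 in lung for the class, and 7 of 14 were apart. Their part was not tested.

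In fibroblast-like cells 4 of 7 genes were apart, against 9.11% of 6366 genes. Lifr had 345 CPM in muscle and 13.4 in lung (4 UMIs, log2 4.68, interval 3.32 to 6.57). Il6ra (109 and 13.4 CPM, log2 3.03) and Socs3 (528 and 67.0 CPM, log2 2.98) were also higher in muscle. Lif was lower in muscle, 1 UMI against 46 (log2 -7.58). Within cluster 16, led by Col1a1 and Postn, with 111 muscle and 15 lung cells, Lifr, Il6ra, Socs3 and Lif were apart. So was Il6 (22.8 and 188 CPM, of which 43 lung UMIs came from 1 cell). These 15 lung cells held all Lifr, Il6ra and Lif UMIs of the lung class and 17 of its 20 Socs3 UMIs. The lung class values thus rest largely on them, and the calls within cluster 16 are no separate support. The other fibroblast cluster, 14, held 38 lung cells and 3 Socs3 UMIs of them, and only Socs3 was apart in it. Lifr, Osmr and Il6ra had 207, 138 and 90 UMIs in its muscle cells and none in its lung cells. With lung set at a floor of 3 counts, these ratios reach only 3.14-, 2.09- and 1.37-fold, so the 4-fold rule could not be met. Over the whole class Osmr (log2 0.97) and Il6st (log2 0.65) were closer between the tissues. RNA of muscle fibres moved with these values: 8 fibre genes summed to 6191 CPM in muscle fibroblast-like cells and to 0 in lung, 7 of 7 tested were apart, and cluster 14, led by the fibre gene Acta1, had 10480 CPM in muscle. Stress genes summed to 7598 CPM in muscle and 3373 in lung, and 2 of 14, Fos and Zfp36, were apart. The part of either was not tested.

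In monocyte-like cells 1 of 8 genes was apart, against 2.43% of 8453. Lif had no UMI in the 38 muscle cells and 56.1 CPM in lung, at least 6.92-fold lower in muscle against a floor of 3 counts. Il6 had 75.6 CPM in muscle and 234 in lung (log2 -1.63), but within cluster 27, which held 31 of the 38 muscle cells and 199 lung cells, it was 87.1 against 29.2 CPM (log2 1.58). In that cluster no gene was apart, and Lif, with 9 lung UMIs, had too few counts for the rule. The direction of Il6 in the class also turned with the clustering: it was 2.12 at Leiden resolution 0.5 and 0.36 among cells with at least 1000 UMIs, where Lif was no longer apart either. In the class Il6ra (log2 0.46), Il6st (-0.11) and Lifr (-0.54) were close. Of the 28 muscle Il6 UMIs, 12 came from 1 cell.

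In neutrophil-like cells none of 4 genes was apart, against 2.36% of 8437. Osm had 576 CPM in muscle and 1027 in lung (log2 -0.83) and Socs3 357 and 837 CPM (log2 -1.23). Clusters 2, 3 and 6 held most lung cells and cluster 9 most muscle cells. Within cluster 9 both were apart: Osm had 632 CPM in muscle and 2582 in lung (log2 -2.03), and Socs3 370 and 1479 (log2 -2.00). Both genes were thus lower in the muscle cells of the shared Retnlg cluster, with stress genes at 7601 CPM in muscle and 15308 in lung, whose part was not tested.

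In macrophage-like cluster 34, 2 of 5 genes were apart, against 3.05% of 2784. Osm had 18.7 CPM in muscle and 286 in lung (log2 -3.93), and Il6 7.48 and 124 CPM (log2 -4.05, 2 and 59 UMIs). Of the receptor subunits none was apart: Lifr had 311 CPM in muscle and 155 in lung, and Il6ra 251 and 107 CPM.

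**Figure D5:**
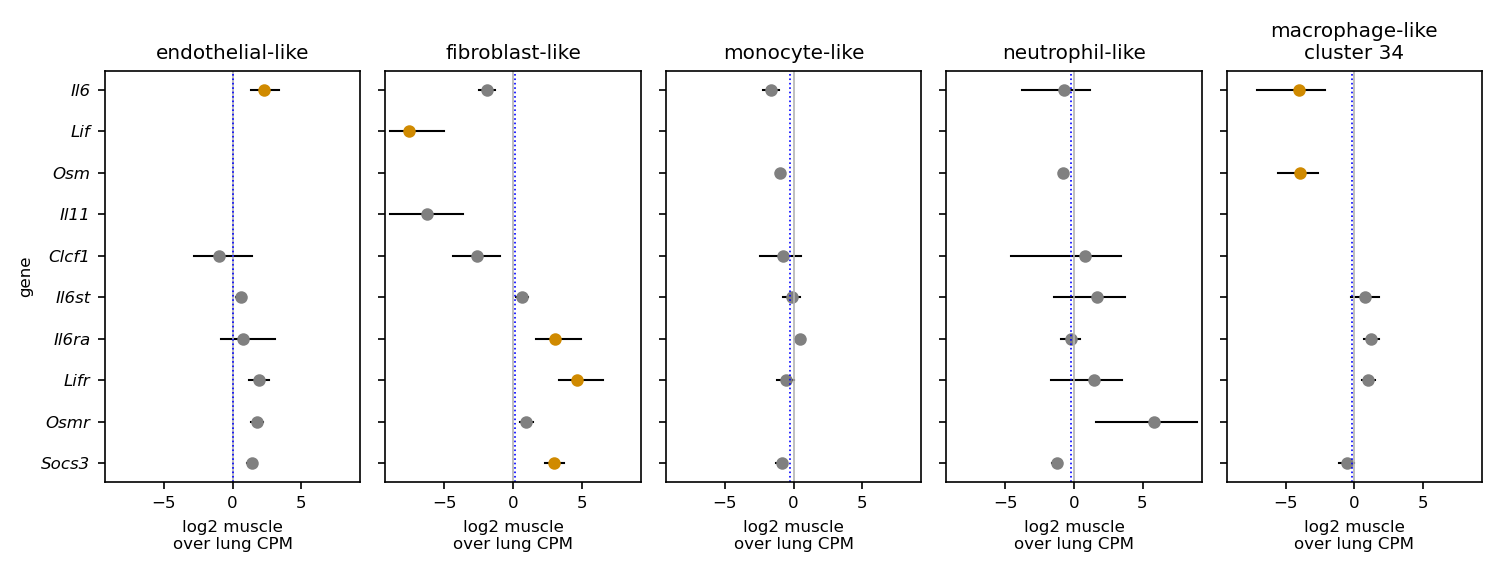
Log2 ratio of muscle over lung CPM with its exact 95% interval (drawn up to 9 either way) for each gene in the 5 compared units; orange marks genes apart by the size rule, and the dotted line is the median of all genes tested in that unit. Genes without a UMI in 1 library have no point. Receptor genes lie mostly to the right in endothelial-like and fibroblast-like cells, and Il6 and Osm to the left in macrophage-like cluster 34.

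Other genes of the pathway were taken from lists. Of 11 genes that carry the signal (Jak1, Stat3 and others), none was apart in endothelial-, monocyte- or neutrophil-like cells or cluster 34, and 1 of 8 tested, the adaptor Gab1, was higher in muscle fibroblast-like cells (214 and 26.8 CPM), where 9.11% of all genes tested were apart. Median log2 ratios of this list were 0.09, -0.38, -0.30, 0.22 and 0.90 in that order, beside 0.02, -0.24, -0.23, -0.20 and 0.14 over all genes tested. Stat3 itself was highest in satellite-like cells at 745 CPM. Of the inhibitors other than Socs3, Socs2 was higher in muscle endothelial-like cells (106 and 18.8 CPM) and lower in muscle monocyte-like cells (2 and 171 UMIs) and cluster 34 (1 and 37 UMIs). Cish, induced by STAT5, was lower in muscle neutrophil-like cells (58.6 and 239 CPM). These were 1 of 10 inhibitors tested in endothelial-, monocyte- and neutrophil-like cells each, beside 4.16%, 2.43% and 2.36% of all genes, and 1 of 3 in cluster 34, beside 3.05%.

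Of 20 genes linked to STAT3, 3 of 18 tested were apart in endothelial-like cells, beside 4.16% of all genes, with Pim3 and Myc higher in muscle and the cyclin Ccnd1 lower. In fibroblast-like cells 5 of 17 were, beside 9.11%: Cebpd (2269 and 77.0 CPM), Pim3, Myc and Fgl2 were higher in muscle, and Timp1, an inhibitor of matrix proteases, was lower (62.8 and 4357 CPM). In monocyte-like cells 3 of 19 were, beside 2.43%: the acute phase gene Saa3 (2.70 and 416 CPM, 1 muscle UMI) and Timp1 (2.70 and 73.7 CPM, 1 muscle UMI) were lower in muscle, and Lcn2, a neutrophil granule gene, was higher (281 and 24.2 CPM). In neutrophil-like cells 2 of 16 were, beside 2.36%: Lcn2 was higher in muscle (5491 and 712 CPM) and Vegfa, an endothelial growth factor, lower (87.9 and 417 CPM). Muscle monocyte-like cells also had 7195 CPM of summed neutrophil markers, against 1307 in lung, and the part of these in Lcn2 was not tested. In cluster 34, Saa3, Lrg1 and Hif1a were lower in muscle, 3 of 11 tested beside 3.05% of all genes. Among other family genes, Il11ra1 was higher in muscle fibroblast-like cells (135 and 13.4 CPM). Il31ra was counted in all 23 pairs, from 288 CPM in satellite-like to 812 CPM in muscle cDC2-like cells. Whether these counts reflect expression of the receptor in every class was not tested.

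The share of cells with a UMI of both of 2 genes was set beside the product of their single shares. In muscle endothelial-like cells Il6st and Osmr were both detected in 22.4% of cells, beside a product of 20.3%. At 1000 UMIs per cell these were 6.05% and 5.44%, with 40 cells left out. In muscle fibroblast-like cells Il6st and Lifr were both detected in 38.6% (product 35.6%; 7.26% and 8.30% at 1000 UMIs), and in satellite-like cells Il6st and Osmr in 24.6% (product 24.1%). Il6st and Il6ra met in 5.86% of lung T-like cells (product 3.81%), and in 1.20% after thinning (product 1.01%). In lung neutrophil-like cells Osm and Socs3 were both found in 31.5% (product 27.5%).

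Genes with the most similar pattern over the 23 pairs of class and library were listed by Pearson's r of log2(CPM + 10), as a description, since pairs from 1 library share their depth and free RNA. For Osm these were Slc15a3 (0.98), Clec4n (0.97) and Ccr1 (0.96), and for Osmr Rhoj (0.97), Grb10 (0.96) and Mindy4 (0.96). Socs3 was nearest to Zfp36 (0.86), Jun (0.84) and Cebpd (0.83). Il6st was nearest to Tgfbr3 (0.88), Zbtb20 (0.87) and Pkd1 (0.87), Lifr to Tppp3 (0.84), and Il6ra to Aph1c (0.77), Adam17 (0.77) and Adgre1 (0.76). Il6 had no close match, with Lpl at 0.76, and Lif was nearest to Ereg (0.87). Clcf1 was nearest to Zfp930 (0.82).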

How the data were processed

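The deposited files hold UMI counts per gene and barcode, made by the authors with Cell Ranger 7.0.1 on GRCm39, per the submitters' processing notes. Each library is 1 sample, so there are no replicates and no tests. The members, lists and markers were chosen with earlier results of these data known. Kept barcodes had at least 200 genes and at most 10% mitochondrial UMIs. A doublet score against simulated pairs removed 100 muscle and 556 lung cells (0.8% per 1000 barcodes). Both libraries were clustered together in scanpy 1.11.5 on 2000 variable genes, without the members and listed genes, with Leiden at resolution 1.0, into 39 clusters. Mononuclear phagocytes, endothelial-like cells and T and NK cells were clustered again. A class needed 3 markers at least 2-fold higher, and markers of muscle fibre and red cells named no cluster because their RNA was spread over all muscle cells; both choices were made after seeing the data. Counts were summed per class and scaled to CPM. The rule of size was also run on simulated counts with planted changes. These held counting error only, so they cannot show how the rule deals with spread between cells or libraries. Ratios of CPM have exact conditional binomial 95% intervals. Genes named are all 10 members, list genes apart by size or among the 3 highest of a class, and the 3 nearest by pattern. In alternatives, edgeR 4.0.16 gave TMM factors. Shares of cells were also computed after thinning to 1000 UMIs. One gene of the lists is not reported here.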

Additional observations from a re-analysis of the deposited data

Results flagged for a closer look

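Il6 was apart by size in opposite directions in 2 cell types. Its log2 ratio of muscle over lung was 2.27 in endothelial-like cells and -4.05 in macrophage-like cluster 34, and the difference between these was not tested. The endothelial value rests on 9 lung UMIs in 70 lung cells, of which 51 were lymphatic-like. Of the 9 UMIs, 8 lay in the 15 lung cells of venous-like sub-cluster 5 and 1 in the lymphatic-like cells. The macrophage value rests on 2 muscle UMIs.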

How the results depend on the processing

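Of 55 counts of members apart by size under other settings, 41 lay within 1.5 times the reported count. In endothelial-like cells 2 genes in place of 1 were apart with a minimum of 500 genes, with at least 1000 UMIs (Il6 and Lifr in both) and with no minimum of counts (Il6, and Osm lower in muscle), and 3 with TMM scaling (Il6, Lifr and Osmr). In monocyte-like cells 0 in place of 1 were apart at Leiden resolution 0.5 and with at least 1000 UMIs. In neutrophil-like cells 1 (Osmr, 2 muscle UMIs) in place of 0 was apart with no minimum of counts. Settings chosen after seeing the data gave 2 without the lymphatic-like sub-cluster, 2 within cluster 12 (Osmr and Socs3), 4 within sub-cluster 5 and 0 within sub-cluster 8 for endothelial-like cells, 1 within cluster 14 for fibroblast-like, 0 within cluster 27 for monocyte-like and 2 within cluster 9 for neutrophil-like cells. With the libraries clustered separately the endothelial-like class, and at Leiden resolution 2.0 the monocyte-like class, had too few cells in 1 library.

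Of 1227 levels recomputed, 977 stayed within the counting interval. Il6 of muscle endothelial-like cells was 102 CPM at a mitochondrial limit of 20%, 144 with separate clustering, 130.0 with totals without mitochondrial genes and Rn18s, and 76.6 with equal weight per cell. Osmr of the same cells was 316, 484 and 472 CPM under the last 3. Lifr of muscle fibroblast-like cells was 254 CPM at the 20% limit and 448 with equal weight. Osm of lung neutrophil-like cells was 1080.0 CPM with 500 genes, 1068 with 1000 UMIs, 1121 with the reduced totals and 1099 without cluster 6. Thinned to 1000 UMIs, joint detection fell to 6.05% for Il6st and Osmr in muscle endothelial-like, 7.26% for Il6st and Lifr in muscle fibroblast-like and 1.20% for Il6st and Il6ra in lung T-like cells, as fewer UMIs were kept. Other causes were not tested. No paired analysis was possible because each tissue has 1 library.

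Depth limits the lung endothelial-like (372846 UMIs) and fibroblast-like (298585 UMIs) and the muscle neutrophil-like (204717 UMIs) and monocyte-like (370528 UMIs) classes. It also limits the muscle cells of macrophage-like cluster 34 (267296 UMIs). In all of these a gene at under 3 UMIs cannot be told from 0.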
